A study of Mus musculus with 2 samples.

Results

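Calcium entry and release in T cells was described here by the transcripts of 9 genes: Plcg1, Itpkb, Itpr1, Itpr2, Itpr3, Stim1, Stim2, Orai1 and Orai2. They are the rows of the deposited table that carry these symbols, 9 of 24013 gene symbols, each taken by its highest row where a symbol had several. RNA was sequenced from 1 library of DGKζ-deficient (DGKζ-/-) mice aged 6 weeks and 1 library of wild-type mice aged 7 weeks, both C57BL/6. In both, naive splenic CD8 T cells had been held for 24 hours on plate-bound anti-CD3 and anti-CD28. The labels do not give the targeted allele, the number of animals behind a library or their sex.

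When the T cell receptor is engaged, phospholipase Cγ1 (Plcg1) splits a membrane lipid, PIP2, into diacylglycerol and inositol trisphosphate (IP3). IP3 opens the IP3 receptors (Itpr1, Itpr2 and Itpr3) and releases calcium from the endoplasmic reticulum, while Itpkb phosphorylates IP3 and so removes it. The emptied store is sensed by STIM proteins, which open ORAI channels in the plasma membrane, and the calcium that enters activates calcineurin and NFAT. DGKζ consumes diacylglycerol, the other product of the same cleavage. Plcg1 thus lies upstream of both products, while the other genes belong to the calcium arm, on which the deleted kinase does not act directly.

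The libraries held 13464169 (deficient) and 37211969 (wild type) reads with 1 row per gene, so the wild-type library was 2.76 times deeper. Values are normalized counts, the reads divided by 1 size factor per library, at which a single read was worth 1.71 in the deficient and 0.583 in the wild-type library. Dgkz itself stood at 2591 normalized counts in the deficient library and 6714 in the wild-type library. The libraries also differed in Xist, at 9206 and 14.0 normalized counts in the deficient and the wild-type library, so genotype, age and sex cannot be told apart. With 1 library per genotype no difference has a replicate check, no test across genes was made, and every interval below covers counting error only.

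Plcg1, Itpkb, Itpr3 and Orai2 were 28.8% to 33.5% lower in the deficient library than in the wild-type library, Itpr2 was 16.9% lower, and Stim1, Stim2, Orai1 and Itpr1 lay within 10% of the wild-type level. All 9 genes passed the minimum mean of 50 normalized counts, with 212 to 1470 reads each in the deficient library and 937 to 4210 in the wild-type library. The log2 ratio of a gene is log2 of its deficient over its wild-type value after a pseudocount of 10 was added to both. By it, 0 of 9 members were at least 2-fold different, where 2.60% of the 10518 compared genes were, and 0 were at least 1.5-fold different, where 9.59% were. The median log2 ratio of the 9 genes was -0.27, against 0.055 for all compared genes, and 7 of 9 were below 0, where 41.8% of compared genes were. In bulk RNA of this kind, fewer cells of a type and less RNA per cell cannot be told apart.

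**Figure D1:**
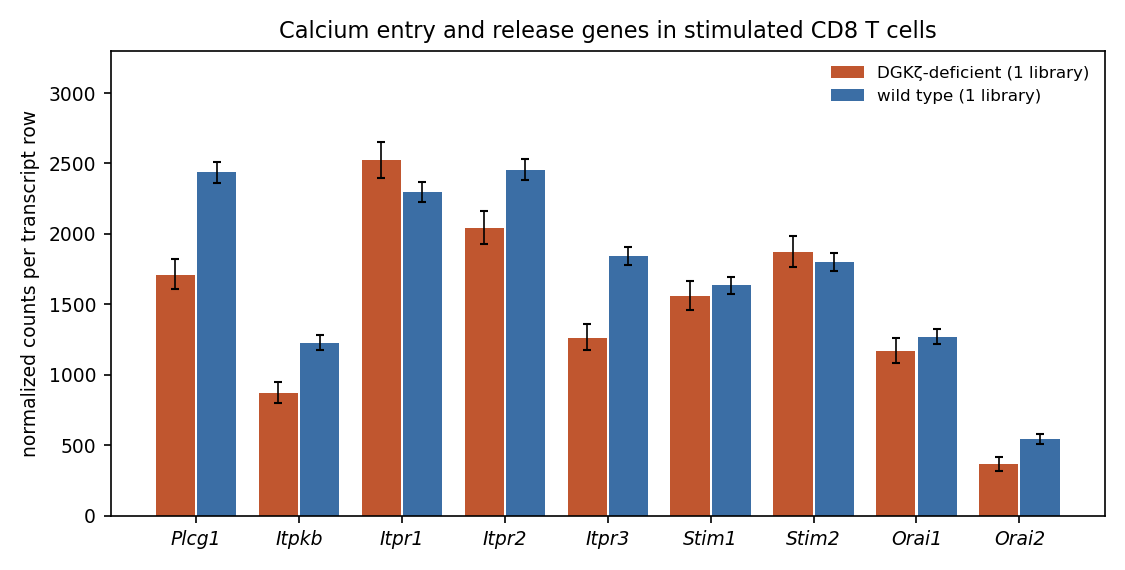
Normalized counts of the 9 genes in the DGKζ-deficient library (left bar of each pair) and the wild-type library (right bar); error bars are exact 95% Poisson intervals of the reads, and there is 1 library per bar. Plcg1, Itpkb, Itpr2, Itpr3 and Orai2 are lower in the deficient library beyond these intervals.

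Plcg1, which makes IP3 and diacylglycerol, was read at 1712 normalized counts in the deficient library and 2438 in the wild-type library. The fold of 0.702 (deficient over wild type, 95% counting interval 0.655 to 0.752) means that it was 1.42-fold lower, and 6.58% of compared genes had a lower log2 ratio than its -0.51. Itpkb, the IP3 3-kinase B that turns IP3 into IP4 and is required for thymocyte maturation in mice, stood at 873 in the deficient library and 1226 in the wild-type library, a fold of 0.712 (0.645 to 0.785). The number of Itpkb reads per Plcg1 read was 0.510 in the deficient library and 0.503 in the wild-type library, and the quotient of these ratios was 1.01 (0.899 to 1.14). In such a quotient the size factors and the division by length cancel, but not a difference between the libraries that runs with length or GC content. With the length and GC trend over all compared genes removed, this quotient was 1.13, inside the interval. The Plcg1 exons share 379 bases with Zhx3 on the opposite strand in the GENCODE annotation, and the library kit does not mark strand. Zhx3 stood at 362 normalized counts in the deficient library and 451 in the wild-type library. The Plcg1 exons also share 248 bases with Gm27206 on the opposite strand. The part of reads from these genes in the Plcg1 value was not tested.

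The 3 IP3 receptors, the calcium release channels of the endoplasmic reticulum, did not stand in one direction. Itpr1 was read at 2521 normalized counts in the deficient library and 2299 in the wild-type library, a fold of 1.10 (1.03 to 1.16). Itpr2 was read at 2041 in the deficient library and 2455 in the wild-type library, a fold of 0.831 (0.779 to 0.887). Itpr3 was read at 1264 in the deficient library and 1840 in the wild-type library, a fold of 0.687 (0.633 to 0.744). The order of the receptors thus ran from Itpr1, the only one of the 9 genes whose interval lay above 1, to Itpr3, the second lowest fold. With equal library totals the log2 ratio of Itpr1 was 0.043 in place of 0.13. After recentring on the median of all compared genes it was 0.078. Intervals were made at the deposited size factors only, and which of them hold 1 depends on that scaling. Itpr2 has a second transcript row, read at 2025 in the deficient library and 2446 in the wild-type library. Its fold of 0.828 is not independent of the first, since the same reads appear to be counted in both. Itpr3 shares 233 exon bases with its antisense transcript Itpr3os.

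The balance among the receptors differed between the libraries. Per read of Itpr1, Itpr3 had 0.501 reads in the deficient library and 0.801 in the wild-type library, a quotient of 0.626 (0.566 to 0.693). Per read of Itpr1, Itpr2 had 0.810 reads in the deficient library and 1.07 in the wild-type library, a quotient of 0.758 (0.693 to 0.828). Per read of Itpr2, Itpr3 had a quotient of 0.826 (0.744 to 0.917). With the length and GC trend removed, Itpr3 per Itpr2 was 0.982, so that difference was no longer seen, Itpr3 per Itpr1 was 0.741, above its interval, and Itpr2 per Itpr1 was 0.754. Counted per kilobase of transcript, Itpr1 made up 39.8% of the receptor transcripts in the deficient library and 31.8% in the wild-type library. Itpr3 made up 21.9% in the deficient library and 28.0% in the wild-type library, and Itpr2 38.2% and 40.2% in the deficient and the wild-type library.

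Transcripts of the STIM proteins, the calcium sensors of the endoplasmic reticulum, were read at nearly equal levels in both libraries. Stim1, which carries most store-operated entry in T cells, stood at 1559 normalized counts in the deficient library and 1636 in the wild-type library, a fold of 0.953 (0.883 to 1.03). Stim2, which responds to smaller losses of stored calcium, stood at 1873 in the deficient library and 1797 in the wild-type library, a fold of 1.04 (0.972 to 1.12). The interval holds 1 for both at the size factors used, so a difference was not detectable at this depth and scaling. The sign of each is not fixed. Stim1 stood at 0.048 with the length and GC trend removed, where the median of all compared genes was 0.063. It stood at -0.16 with equal library totals and at -0.12 after recentring on the median of all compared genes. Stim2 stood at -0.030 with equal library totals, where that median was -0.033. Stim2 had 1.20 reads per Stim1 read in the deficient library and 1.10 in the wild-type library, a quotient of 1.09 (0.986 to 1.21). Per kilobase, Stim1 made up 50.1% of the pair in the deficient library and 52.4% in the wild-type library.

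The ORAI genes, which encode the pore of the calcium release-activated channel, differed among themselves. Orai1, the main pore subunit of T cells, was read at 1168 normalized counts in the deficient library and 1271 in the wild-type library, a fold of 0.919 (0.842 to 1.002). Its log2 ratio was -0.12, and it was -0.21 with equal library totals and -0.18 after recentring. Orai2, which forms mixed channels with ORAI1 and lowers their current in mouse T cells, was read at 364 in the deficient library and 546 in the wild-type library, a fold of 0.665 (0.571 to 0.773). This is the lowest fold of the 9 genes, from the fewest reads, 212 in the deficient library and 937 in the wild-type library. Its log2 ratio of -0.57 falls just short of the 1.5-fold rule, which asks for 0.585 in size, while the fold without a pseudocount just reaches it. Orai2 had 0.311 reads per Orai1 read in the deficient library and 0.430 in the wild-type library, a quotient of 0.724 (0.607 to 0.863). Orai3, the remaining family member and not one of the 9 genes, kept its ratio to Orai1, with a quotient of 0.998 (0.852 to 1.17). Per kilobase, Orai2 made up 9.51% of the ORAI transcripts in the deficient library and 12.7% in the wild-type library, while Orai1 made up 63.7% and 61.4% in the deficient and the wild-type library.

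**Figure D2:**
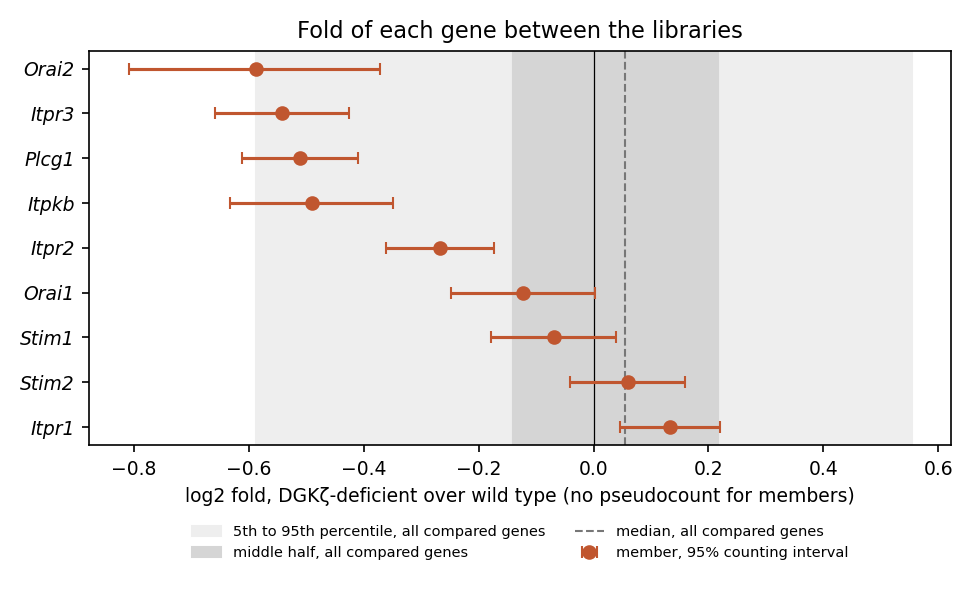
Log2 fold of each gene in the DGKζ-deficient library over the wild-type library, without pseudocount, with its exact 95% counting interval. The shading gives the quartiles and the 5th to 95th percentile of the log2 ratios of all 10518 compared genes and the dashed line their median of 0.055; Orai2, Itpr3, Plcg1, Itpkb and Itpr2 lie left of the quartile range and the other 4 genes inside it.

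The levels per kilobase of transcript, which allow genes to be compared with each other, ran in nearly the same order in both libraries. Orai1 was the most abundant, at 623 normalized counts per kilobase in the deficient library and 678 in the wild-type library. Plcg1 followed at 386 in the deficient library and 550 in the wild-type library. Stim1 stood at 382 in the deficient library and 400 in the wild-type library, and Stim2 at 380 and 364 in the deficient and the wild-type library. In the deficient library the intervals of neighbours overlapped among Plcg1, Stim1 and Stim2, so their order there is not resolved, whereas in the wild-type library Plcg1 stood above both. Itpr1 stood at 255 per kilobase in the deficient library and 233 in the wild-type library, and Itpr2 at 245 and 295 in the deficient and the wild-type library. These receptors were the only members to change places, and in the deficient library their intervals overlapped. The lowest levels were those of Itpr3 (141 in the deficient and 205 in the wild-type library), Itpkb (140 in the deficient and 197 in the wild-type library) and Orai2 (93.0 in the deficient and 140 in the wild-type library). The intervals of Itpr3 and Itpkb overlapped in both libraries. The lengths are those of GENCODE transcripts of the same RefSeq accession on GRCm38 and may differ from the annotation the authors used. With the length of the longer Itpr2 transcript row, Itpr1 made up a larger share of the receptors than Itpr2 in both libraries.

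**Figure D3:**
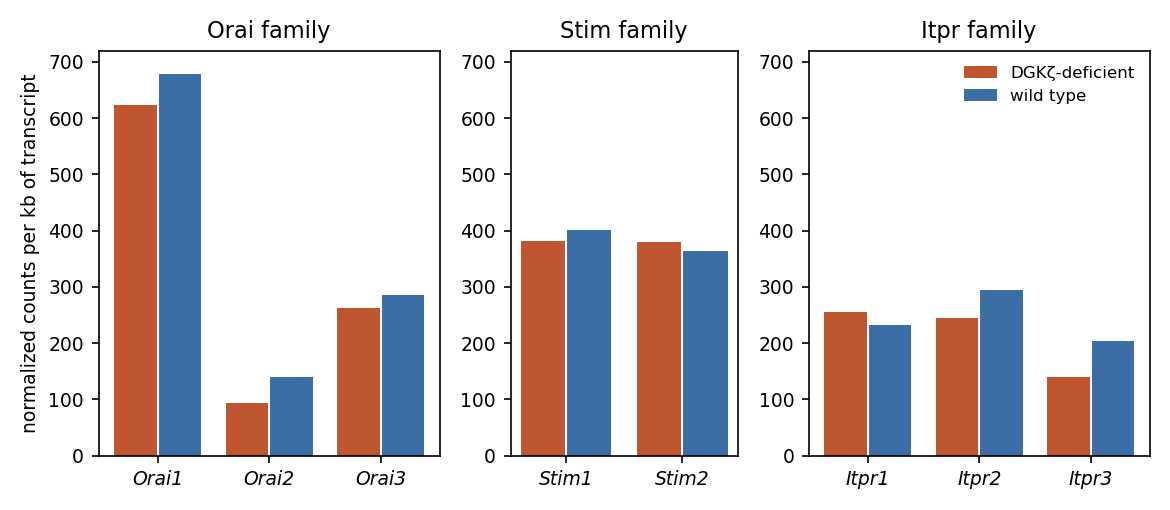
Normalized counts per kilobase of transcript for the ORAI, STIM and IP3 receptor genes in the DGKζ-deficient library (left bars) and the wild-type library (right bars), 1 library per bar. Orai1 is the highest in both libraries; Itpr1 is above Itpr2 in the deficient library and below it in the wild-type library.

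The low ratios of Itpr3 and Itpkb coincide with the length and base composition of their transcripts. Their transcripts of 8990 and 6235 bases, with 57.5% and 56.3% G and C, belong to the longest of 5 length classes and the most GC-rich of 5 GC classes of the compared genes. The 193 compared genes in that class had a median log2 ratio of -0.36 (quartiles -0.63 and -0.13), and both members, at -0.54 and -0.48, lie inside those quartiles. Orai2, Plcg1 and Stim1 share another class of 372 genes with a median of -0.02 (quartiles -0.25 and 0.12). There Orai2 at -0.57 and Plcg1 at -0.51 lie below the lower quartile, while Stim1 at -0.07 does not. Itpr1 at 0.133 and Itpr2 at -0.265 lie just outside the quartiles of their class of 425 genes (-0.251 and 0.131). Orai1 at -0.1212 lies at the lower quartile of its class of 546 genes (-0.1205), and Stim2 lies inside the quartiles of its own. When a trend in length and GC content over all compared genes was removed, the log2 ratio of Itpr3 was -0.10 and that of Itpkb -0.21, while those of Orai2 and Plcg1 were -0.46 and -0.38. Itpr1 then stood at 0.33 and Itpr2 at -0.07, and the median of all compared genes at 0.063. These values depend on the method. Less the median of its class, Itpr3 was -0.18, Itpkb -0.12, Orai2 -0.55 and Plcg1 -0.49, with Itpr1 at 0.18 and Itpr2 at -0.22. The part of transcript length and composition in the single values was not tested.

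**Figure D4:**
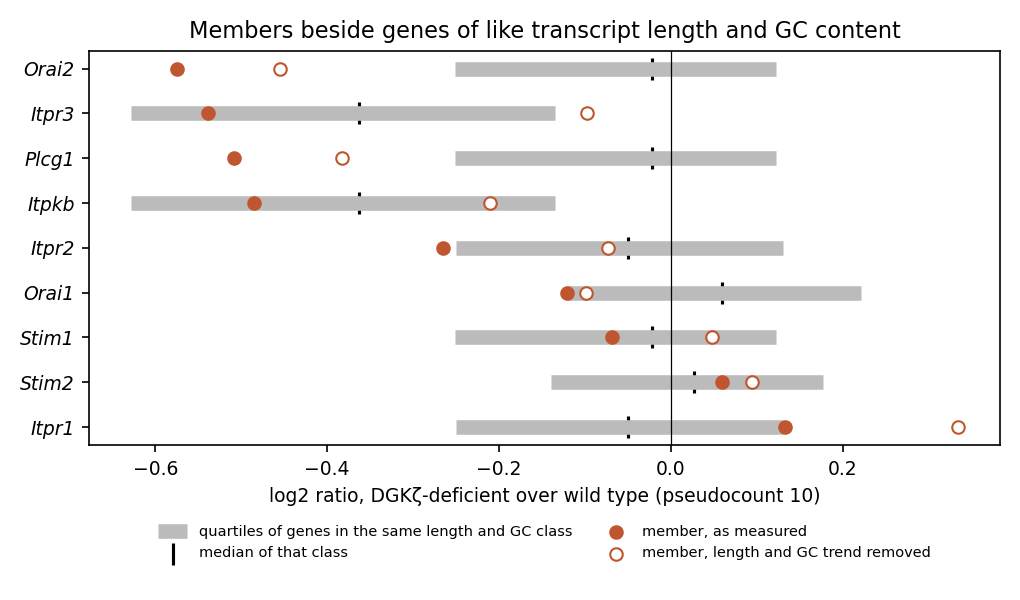
Log2 ratio (DGKζ-deficient over wild type) of each gene as measured (filled) and with the length and GC trend removed (open), beside the quartiles (grey bar) and median (tick) of all compared genes in the same length class and GC class, 5 of each. Orai2 and Plcg1 lie well outside the bar of their class, Itpr2, Orai1 and Itpr1 at the edge of theirs or just past it, and Itpr3, Itpkb, Stim1 and Stim2 inside.

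Markers of cell types differed between the libraries as well. All 5 markers of CD8 T cells were lower in the deficient library, with log2 ratios from -0.87 (Cd3g) to -0.18 (Cd3d) and a median of -0.48, and their summed level was 22072 normalized counts in the deficient library and 31261 in the wild-type library. The labelled cell type holds by these markers, with Cd8a at 8455 normalized counts in the deficient library and 13090 in the wild-type library. Of 8 B cell markers 6 were measured, all 6 below 0 with a median of -0.84, and the 8 together summed to 868 in the deficient library and 1524 in the wild-type library. Cd4 stood at 53.2 in the deficient library and 171 in the wild-type library. Of 4 NK cell markers 2 were measured, Klrd1 with a log2 ratio of -1.49 and Klrk1 with one of 0.11, and the list summed to 767 in the deficient and 991 in the wild-type library. The defining NK markers Ncr1 and Klrb1c had 0 reads each in the deficient library, and 7 and 9 reads in the deeper wild-type library. Their fold intervals, 0 to 2.04 for Ncr1 and 0 to 1.49 for Klrb1c, both hold 1. The 5 myeloid markers summed to 266 in the deficient library and 260 in the wild-type library, with the 2 measured ones in opposite directions, Mpeg1 at a log2 ratio of 0.52 and Cd68 at -0.37. Lyz2, Csf1r and Itgam were below the minimum mean. The 4 markers of platelets and erythroid cells summed to 6.86 and 54.2 in the deficient and the wild-type library. The part of these differences in the levels of Plcg1, Itpkb, Itpr3 and Orai2 was not tested.

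The authors' deposited table gives log2 fold changes of the same sign for all 9 genes, from -0.38 for Itpr3 to 0.10 for Itpr1, and smaller in size than the ratios above. In the authors' deposited table, the adjusted p-value is 0.999 for all 10 transcript rows of the members, and the lowest unadjusted p-value among them is 0.129, for Itpr3.

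Promoter sequences of the genes with the lowest folds are shown so that they can be read beside each other. Orai1, a paralog of Orai2 with a fold nearer to 1, is shown as well. They are RefSeq windows on GRCm38.p6 from 250 bases before to 50 bases after the annotated start, and 8 of the 9 genes had one; Itpr1 is named only. Capitals mark the E-box CACGTG, the NFAT core GGAAA and the CCAAT box CCAAT, on either strand.
Orai2, chr5:136170607-136170906, minus strand: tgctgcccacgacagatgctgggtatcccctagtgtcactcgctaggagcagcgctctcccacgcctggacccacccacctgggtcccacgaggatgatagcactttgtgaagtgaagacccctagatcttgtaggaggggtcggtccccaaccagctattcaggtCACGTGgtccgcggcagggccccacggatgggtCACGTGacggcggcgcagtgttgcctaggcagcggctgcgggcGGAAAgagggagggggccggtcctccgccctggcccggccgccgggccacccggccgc
Itpr3, chr17:27057054-27057353, plus strand: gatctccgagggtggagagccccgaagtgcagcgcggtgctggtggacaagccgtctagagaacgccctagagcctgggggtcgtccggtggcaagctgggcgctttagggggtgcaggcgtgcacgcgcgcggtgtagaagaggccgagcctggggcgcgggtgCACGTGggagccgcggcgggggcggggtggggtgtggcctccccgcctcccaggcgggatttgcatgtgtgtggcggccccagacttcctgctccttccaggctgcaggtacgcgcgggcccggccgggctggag
Plcg1, chr2:160731060-160731359, plus strand: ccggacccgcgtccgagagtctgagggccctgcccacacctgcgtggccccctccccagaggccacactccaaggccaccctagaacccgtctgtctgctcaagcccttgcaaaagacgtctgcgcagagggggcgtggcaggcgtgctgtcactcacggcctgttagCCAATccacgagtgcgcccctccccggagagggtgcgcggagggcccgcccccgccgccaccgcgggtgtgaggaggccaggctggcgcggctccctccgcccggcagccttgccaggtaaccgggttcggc
Itpkb, chr1:180330226-180330525, plus strand: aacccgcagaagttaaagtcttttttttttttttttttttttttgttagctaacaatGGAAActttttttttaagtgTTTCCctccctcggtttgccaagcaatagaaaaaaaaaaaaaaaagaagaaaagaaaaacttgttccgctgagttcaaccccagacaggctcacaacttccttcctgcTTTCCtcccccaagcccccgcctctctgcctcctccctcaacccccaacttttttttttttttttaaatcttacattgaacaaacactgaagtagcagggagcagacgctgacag
Orai1, chr5:123014824-123015123, plus strand: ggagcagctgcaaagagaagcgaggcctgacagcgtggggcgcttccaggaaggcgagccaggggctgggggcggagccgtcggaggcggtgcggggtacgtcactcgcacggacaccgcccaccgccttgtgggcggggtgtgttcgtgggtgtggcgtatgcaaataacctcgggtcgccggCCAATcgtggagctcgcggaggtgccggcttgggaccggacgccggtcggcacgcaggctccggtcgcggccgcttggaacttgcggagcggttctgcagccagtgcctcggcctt
The E-box was found in 2 of the 8 windows, those of Orai2 with 2 copies, 84 and 51 bases before the start, and of Itpr3 with 1 copy, 85 bases before it. It was found in 7.15% of 32851 promoter windows of the same length. The NFAT core was found in Itpkb (3 copies) and Orai2 (1 copy), and in 61.3% of all windows. The CCAAT box was found in Itpr2, Orai1, Plcg1 and Stim2, and in 37.4% of all windows. The GC box GGGCGG was found in 7 of the 8, the exception being Itpkb, and in 35.7% of all windows. Those 7 windows held 68% to 78.7% G and C, and that of Itpkb 39.3%. All windows were counted whatever their G and C content, and its part in these shares was not tested. The AP-1 site TGANTCA, the cyclic AMP response element TGACGTCA and the EGR site GCGTGGGCG were found in 0 of the 8, and in 7.81%, 1.79% and 0.612% of all windows. Both strands were searched and the windows of the same gene symbol were not merged. A match is a run of letters and is not shown to be bound.

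The wider calcium machinery was taken from 7 lists with 107 genes, of which 71 were measured at a mean of at least 50 normalized counts. Of these 71, 3 passed the 2-fold rule downward in the deficient library and 0 upward, where 1.29% and 1.30% of all compared genes were. By the 1.5-fold rule 6 were lower and 4 higher, where 5.07% and 4.53% of all compared genes were. Their median log2 ratio was 0.065, near the 0.055 of all compared genes.

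The partners of store-operated entry had a median log2 ratio of -0.03 over 8 measured of 11 genes, with 0 past the 2-fold rule. Ahnak, a giant scaffold protein, had the highest value, at 2912 normalized counts in the deficient library and 1549 in the wild-type library, 1.88-fold higher (1.77 to 1.998). Cracr2a, a calcium-binding protein that stabilises the STIM1 and ORAI1 complex, stood at 127 in the deficient library and 180 in the wild-type library, and Homer3, a scaffold that binds IP3 receptors, at 1094 and 924 in the deficient and the wild-type library.

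The other phospholipase C genes differed among themselves. Plcb3, an isoform activated by G protein-coupled receptors, was 2.81-fold lower (2.01 to 4.02), at 66.9 normalized counts in the deficient library and 188 in the wild-type library. Plcg2, the γ isoform of B cells and myeloid cells, was 1.64-fold higher (1.44 to 1.86), at 640 in the deficient library and 390 in the wild-type library. Plcg2 stood opposite to Plcg1 and to the measured B cell markers. Of the 2 measured myeloid markers, Mpeg1 was higher in the deficient library, at 185 against 127 in the wild-type library. The other, Cd68, was lower, at 70.3 against 93.9. The myeloid markers Lyz2, Csf1r and Itgam were below the minimum mean. They had 1, 4 and 1 reads in the deficient library and 13, 28 and 27 in the deeper wild-type library. The fold interval holds 1 for Lyz2 (0.005 to 1.51) and Csf1r (0.107 to 1.20), and lies below 1 for Itgam (0.003 to 0.661). The part of such cells in the value of Plcg2 was not tested. Plcxd2 stood at 1998 in the deficient library and 1662 in the wild-type library. Of 14 genes 6 were measured, 1 was past the 2-fold rule, and the median log2 ratio was -0.02.

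The list of IP3 metabolism also holds genes that act on other inositol phosphates and on phosphoinositide lipids. Among its 14 measured of 16 genes, 0 were past the 2-fold rule and the median log2 ratio was -0.10. Itpkc, the IP3 3-kinase C, stood opposite to Itpkb, at 398 normalized counts in the deficient library and 246 in the wild-type library, 1.62-fold higher (1.37 to 1.90). The phosphatase gene Inpp4b, whose product removes the 4-phosphate of phosphoinositides, had the most reads of the list and was 1.56-fold lower (1.52 to 1.61), at 11520 in the deficient library and 18027 in the wild-type library. Its relative Inpp4a was 1.85-fold lower (1.48 to 2.33).

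Calcium pumps and ryanodine receptors gave 4 measured of 12 genes, all between log2 ratios of -0.23 and 0.25 and with 0 past the 2-fold rule. These 4 included Atp2a3 (SERCA3, which refills the endoplasmic reticulum), at 2132 in the deficient library and 2497 in the wild-type library. The plasma membrane pump gene Atp2b1 stood at 2394 and 2126, and the Golgi pump gene Atp2c1 at 2458 and 2060, in the deficient and the wild-type library. None of the 3 ryanodine receptor genes reached the minimum mean. The list depended on the processing. With summed transcript rows 1 gene was at least 2-fold lower, and the median was -0.09 in place of 0.02. With no minimum mean 2 genes were at least 2-fold lower, and the median was -0.40. Mitochondrial calcium uptake genes had a median of 0.13, with 12 of 12 measured and 0 past the 2-fold rule. Ccdc109b (MCUb), a subunit that dampens the uniporter, was 1.80-fold higher (1.34 to 2.39) at low levels, 137 normalized counts in the deficient library and 76.4 in the wild-type library. The exchanger gene Slc8b1 had a log2 ratio of -0.48 and Vdac3, a channel of the outer membrane, one of 0.40.

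Calcium sensors and buffers of the endoplasmic reticulum had a median of 0.19 over 16 measured of 20 genes, with 0 past the 2-fold rule. Hspa5, the chaperone BiP, stood at 30707 normalized counts in the deficient library and 24389 in the wild-type library, 1.26-fold higher (1.24 to 1.28). The kinases upstream of the calmodulin-dependent kinases were lower, with log2 ratios of -0.48 for Camkk1, a low gene whose fold interval of 0.412 to 1.06 holds 1, and -0.31 for Camkk2. The ion channel list had a median of 0.03 over 11 measured of 22 genes and 2 past the 2-fold rule. Kcna2, a voltage-gated potassium channel gene, was 2.71-fold lower (1.90 to 3.97), at 60.0 in the deficient library and 163 in the wild-type library. Tpcn1, a cation channel of endosomes and lysosomes, was 2.03-fold lower (1.79 to 2.30), at 516 in the deficient library and 1045 in the wild-type library. Its relative Tpcn2 was 1.81-fold lower (1.37 to 2.43), at 103 and 187.

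**Figure D5:**
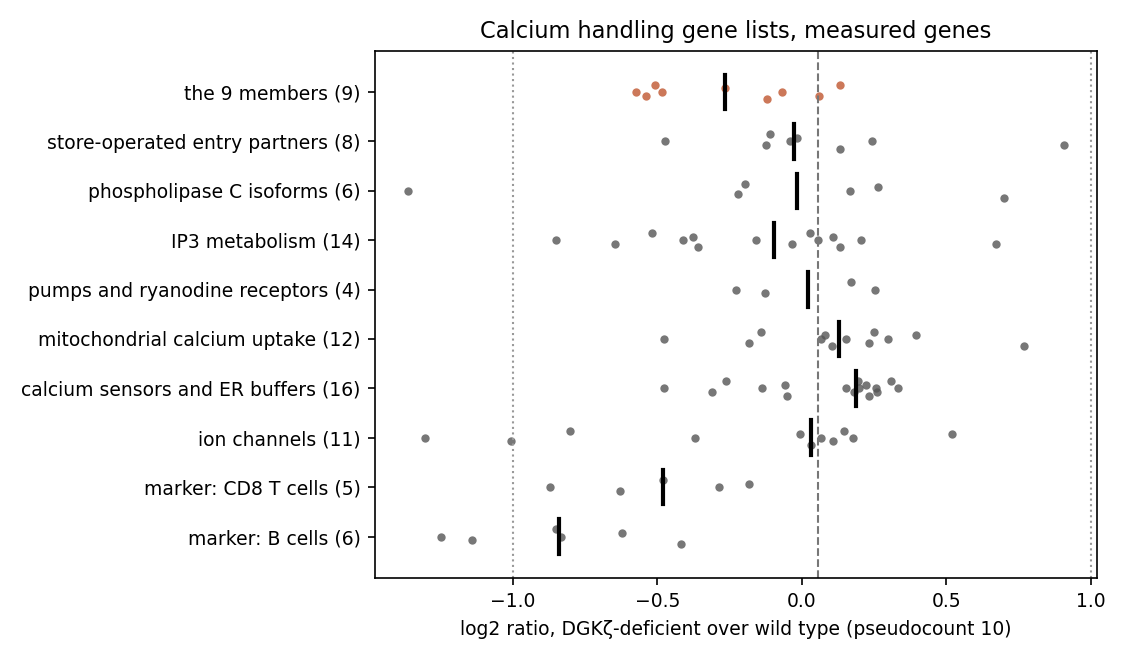
Log2 ratio (DGKζ-deficient over wild type) of each measured gene, by list, with the number of genes in brackets; bars are list medians, the dashed line is the median of all compared genes (0.055) and the dotted lines are the 2-fold rule. The 9 members have a median of -0.27, the 7 related lists medians from -0.10 to 0.19, and the CD8 T cell and B cell markers medians of -0.48 and -0.84.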

How the data were processed

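Per the submitters' processing notes, STAR version 2, DESeq and build mm9 were used, with no role stated. The counting program is not given in the sources used here, nor is the annotation. The signal values deposited by the authors are normalized counts per RefSeq transcript row, made by dividing reads by a library's size factor (read from the values). In both libraries 100% of values were whole multiples of 1 read within a relative tolerance of 0.0001, so reads were recovered. An edgeR test has no residual degrees of freedom with 1 library per group and was not run. The authors' deposited table holds a log2 fold change, a score (not used) and p-values.

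Of 33018 rows, 1 was left out for a shifted column. Of 24013 symbols, 4911 had several rows, and the row with the highest mean was used. Genes with a mean of at least 50 were compared. Fold intervals are exact (Clopper-Pearson, 95%) on recovered reads. A quotient is the deficient read ratio divided by the wild-type read ratio, and its interval is that of the conditional odds ratio. As the reads carry no molecular identifiers, intervals cover counting error only. Functions were tested on simulated data. Python 3.11.15, pandas 2.3.3 and SciPy 1.17.1 were used. Length and GC content came from GENCODE M21 transcripts, matched for 98.9% of compared genes.

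The members and lists were chosen with earlier results of these data known. Named beside the members were genes past the 2-fold rule and the 3 largest absolute log2 ratios of each list; Orai3, Zhx3, Dgkz and Xist were added after their values were seen. Quotients of paralogs and the length and GC classes were also added after the data were seen. Alternatives were other scalings, pseudocounts, minimums, transcript rows and removal of the length and GC trend.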

Additional observations from a re-analysis of the deposited data

How the results depend on the processing

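No paired analysis was possible because there is 1 library per genotype; for the same reason no library could be left out. Each of the 9 log2 ratios stayed inside its own counting interval with a pseudocount of 1 or 50, with summed transcript rows, after recentring and, for Itpr2, on its other transcript row. Equal totals gave 0.043 for Itpr1, -0.030 for Stim2, -0.16 for Stim1 and -0.21 for Orai1. They moved the median of all compared genes from 0.055 to -0.03. The members at least 1.5-fold lower numbered 3 at equal totals, 2 after recentring and 1 with a pseudocount of 1, against 0, and 0 passed the 2-fold rule in every setting run. Removing the length and GC trend, an alternative chosen after seeing the data, gave -0.38 for Plcg1, -0.21 for Itpkb and 0.33 for Itpr1. It gave -0.072 for Itpr2, -0.10 for Itpr3 and 0.048 for Stim1, whose sign turned, and a median of -0.10 for the members. In that setting the median of all compared genes was 0.063. The cause of these changes was not tested. Of 8 quotients between members or paralogs, 6 stayed inside their interval with that trend taken out, and Itpr3 per Itpr1 and per Itpr2 did not.

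Shares within a family depend on the division by length. Without it, Orai1, Orai2 and Orai3 took 56.8%, 17.7% and 25.5% of reads in the deficient library and 53.2%, 22.9% and 23.9% in the wild-type library. Stim1 and Stim2 took 45.4% and 54.6% in the deficient library and 47.6% and 52.4% in the wild-type library. Itpr1, Itpr2 and Itpr3 took 43.3%, 35.03% and 21.7% in the deficient library and 34.9%, 37.2% and 27.9% in the wild-type library. Summed rows, which count Itpr2 reads in both of its rows, gave 32.1%, 51.8% and 16.1% in the deficient library and 25.4%, 54.2% and 20.4% in the wild-type library. The other Itpr2 row and its length gave 44.9%, 30.5% and 24.7% in the deficient library and 35.996%, 32.4% and 31.6% in the wild-type library. In each of these, the share of Itpr1 was higher and that of Itpr3 lower in the deficient library. The count of all compared genes past the 2-fold rule was 273, 163 with a pseudocount of 50, 164 at a minimum mean of 200 and 551 with none. The 2-fold calls of Plcb3 and Kcna2 were lost at a minimum mean of 200, and those of Kcna2 and Tpcn1 with a pseudocount of 50. After removal of the trend in length and GC, Tpcn1 stood at -0.81 and no longer passed, and Ahnak stood at 1.21 and passed. The deficient library is the shallower one and sets the width of the intervals.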
